A study of Mus musculus with 8 samples.

Results

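RNA levels of 10 genes of the NF-kB system were followed in Ly6C-high monocytes of mouse bone marrow. They are the 5 subunit genes Nfkb1, Nfkb2, Rel, Rela and Relb, the 3 classical IkB genes Nfkbia, Nfkbib and Nfkbie, the atypical IkB gene Nfkbiz, and Tnfaip3, which encodes the ubiquitin-editing enzyme A20. The genes were taken by name, all 10 were among the 13744 genes analysed, and all 10 passed the filter on low values with 12752 genes in all. There were 8 libraries, made as pairs from wild type mice and from mice with a conditional knockout of Bcl6 (labelled Bcl6 cKO), a knockout of Irf2 (Irf2 KO) or a knockout of Nr4a1 (Nr4a1 KO). Bcl6 is a transcriptional repressor, Irf2 an interferon regulatory factor and Nr4a1 an orphan nuclear receptor that nonclassical monocytes need. The series concerns how such factors promote nonclassical monocytes, which arise from the Ly6C-high cells measured here. The sources used here do not give the Cre line of the conditional knockout, the deleted exons, or the age and sex of the mice. They also do not say that the replicates are separate mice. The p-values thus measure only the spread between these libraries, which may be technical.

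NF-kB proteins are dimers of Rel-family subunits that bind kB sites in DNA. In resting myeloid cells the classical IkB proteins hold the dimers inactive, mainly in the cytoplasm. Signals from Toll-like, TNF and IL-1 receptors activate the IkB kinase, which marks IkB proteins for destruction and frees the dimers. A separate, noncanonical route uses the kinase NIK to process p100, the product of Nfkb2, into p52, which pairs with RelB. Free NF-kB switches on several of its own inhibitors, among them Nfkbia and Tnfaip3, so that the response ends.

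Promoter sequences are shown first because self-regulation by NF-kB acts through kB sites, and the members differ in holding one at their start. RefSeq starts on GRCm38.p6 were at hand for 7 of the 10 members, and Nfkb1, Relb and Nfkbiz had none. A kB motif, searched on both strands, lay within 250 bases before a start in 5 of the 7 members, namely Nfkb2, Rel, Nfkbia, Nfkbie and Tnfaip3. Of the 10 starts of these members 7 held a motif, and of all 32851 mouse starts searched alike 7.25% did. The windows of Rela and Nfkbib held none, which says only that these letters are not in those windows. Whole windows are printed below for the 2 inhibitors whose windows held no annotated exon, Nfkbia at chr12:55492648-55492897 on the minus strand and Nfkbie at chr17:45555450-45555699 on the plus strand, with the motif in capitals.
Nfkbia: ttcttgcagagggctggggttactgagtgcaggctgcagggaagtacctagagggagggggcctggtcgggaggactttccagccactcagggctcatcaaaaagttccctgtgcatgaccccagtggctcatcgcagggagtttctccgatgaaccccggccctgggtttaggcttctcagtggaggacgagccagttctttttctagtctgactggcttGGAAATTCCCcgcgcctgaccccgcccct
Nfkbie: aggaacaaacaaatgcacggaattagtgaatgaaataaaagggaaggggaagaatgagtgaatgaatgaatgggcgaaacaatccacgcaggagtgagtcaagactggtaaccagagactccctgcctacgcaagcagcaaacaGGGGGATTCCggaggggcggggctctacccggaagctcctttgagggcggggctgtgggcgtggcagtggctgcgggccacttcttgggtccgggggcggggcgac

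The Nfkbia motif ran from base -29 to base -20 before the start, and the Nfkbie motif from base -106 to base -97. For the other 3 members, 30 bases around each motif of the first start are shown. The Rel site is at chr11:23771042-23771071 (minus strand, motif from base -92 to base -82). The Tnfaip3 sites of its first start are at chr10:19015516-19015545 and chr10:19015411-19015440 (minus strand). The Nfkb2 sites of its first start are at chr19:46304688-46304717 and chr19:46304707-46304736 (plus strand), in bases that the annotation also counts as exon.
Rel: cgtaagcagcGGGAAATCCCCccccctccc
Tnfaip3 site 1: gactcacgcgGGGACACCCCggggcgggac
Tnfaip3 site 2: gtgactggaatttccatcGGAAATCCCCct
Nfkb2 site 1: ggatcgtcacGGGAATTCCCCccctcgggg
Nfkb2 site 2: ccccctcggggggccgaaaGGGGCTTTCCc

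The windows of the 7 members were also searched on both strands for motifs of the deleted factors. The NR4A1 element AAAGGTCA, the IRF element GAAANNGAAA and the BCL6 element TTCCTNGAA had 0 matches in them. Of all mouse starts 1.34%, 2.98% and 1.31% held a match. With only 10 starts searched, 0 matches would be usual at such shares. The search thus cannot tell whether these members differ from other genes. The matches are a description of sequence and do not show binding.

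**Figure D1:**
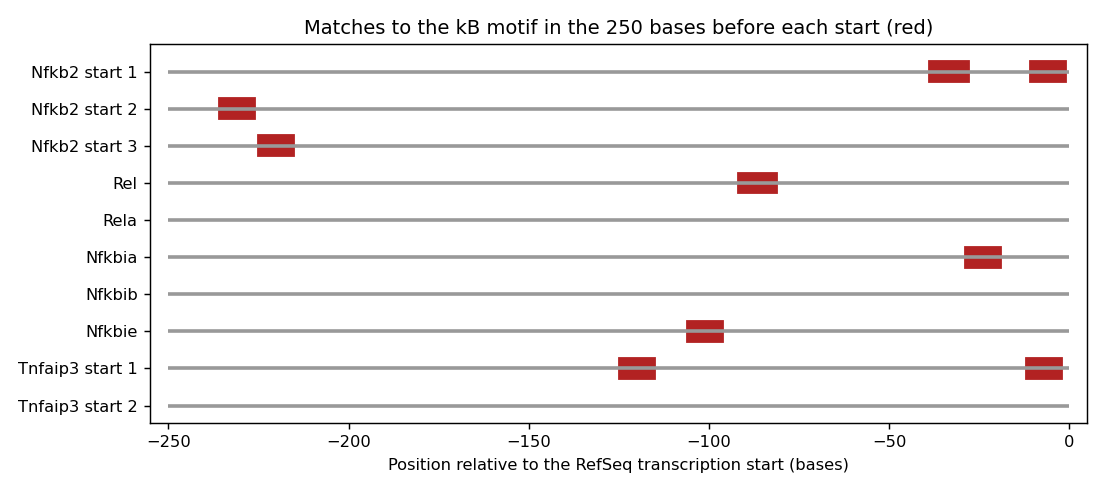
Positions of kB motifs (red) in the 250 bases before each RefSeq start of 7 NF-kB genes, with the distance from the start in bases on the x axis. Nfkb2, Rel, Nfkbia, Nfkbie and Tnfaip3 hold at least 1 motif, and Rela and Nfkbib hold none.

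The libraries held 46617756 to 62633123 reads assigned to genes, and 1 CPM (counts per 1e+06 after scaling) stood for 47.9 to 61.8 reads. Nr4a1 stood at 4.64 and 5.29 log2 CPM in wild type, at 2.32 and 2.98 in Nr4a1 KO, and at 2.59 and 2.52 in Irf2 KO. Irf2 stood at 7.18 and 7.14 in wild type and 6.50 and 6.69 in Irf2 KO, a fall of 0.56 ± 0.14 (SE) on the log2 scale (adjusted p = 0.0222). Bcl6 went against its label, at 4.66 and 4.64 in wild type and 6.53 and 6.40 in the libraries labelled Bcl6 cKO. Reads outside a deleted part would check nothing. The deleted part is unknown here, so this group is named by its label. Defining genes of classical monocytes were abundant in all 8 libraries, with Ly6c2 at 11.49 to 12.61 log2 CPM, Ccr2 at 9.83 to 10.75 and Lyz2 at 13.50 to 14.74.

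Markers of other cells moved with genotype and stand beside every result below. For scale, 21.6% of all genes tested were called in Irf2 KO (adjusted p under 0.05), 5.01% in Bcl6 cKO and 15.1% in Nr4a1 KO. Those called lower were 12.3%, 3.65% and 11.2% of all genes in that order. Of 13 tested neutrophil genes 7 fell in Irf2 KO, 3 in the libraries labelled Bcl6 cKO and 0 in Nr4a1 KO. The summed log2 CPM of the neutrophil genes was 11.30 and 11.14 in wild type, 10.46 and 10.23 in the Bcl6 cKO libraries, 9.27 and 10.32 in Irf2 KO, and 11.665 and 11.33 in Nr4a1 KO. Of 9 nonclassical monocyte genes, 1 fell and 1 rose in Bcl6 cKO, 5 fell in Irf2 KO and 4 fell in Nr4a1 KO, and the summed level was 8.67 and 9.03 in wild type, 8.24 and 8.33, 7.85 and 7.60, and 8.52 and 8.695 in the same order. Of 4 haemoglobin genes 1, 4 and 1 fell, and their summed level was 4.61 and 4.67 in wild type against 1.39 and 2.285 in Irf2 KO. Of 5 tested B cell genes 1, 3 and 1 fell. The summed B cell level did not fall, at 9.43 and 9.61 in wild type, 9.74 and 9.70 in Bcl6 cKO, and 9.52 and 9.62 in Irf2 KO. In Nr4a1 KO it was 9.39 and 10.015. Ighm alone stood at 9.24 and 9.45 in wild type. Of 7 dendritic cell genes 4 fell and 1 rose in Irf2 KO, with 0 called in the other comparisons with wild type. Their summed level was higher in Irf2 KO, at 8.58 and 8.80 against 7.40 and 7.96 in wild type. Bst2 alone stood at 8.45 and 8.71 in Irf2 KO. Of 10 monocyte genes 5 fell in Irf2 KO, namely Lyz2 (log2 fold change -1.04), Cd68 (-0.85), Csf1r (-0.75), Itgam (-0.68) and F13a1 (-0.53), and Ccr2 rose in Nr4a1 KO (0.50). The single tested T and NK gene, Nkg7, rose in all 3. None of these genes was at 0 reads in any library, and the part of such cells in the NF-kB results was not tested. In sorted bulk RNA, fewer cells of a type and less RNA per cell cannot be told apart.

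In wild type monocytes the inhibitor Nfkbia was by far the most abundant of the 10 transcripts per length. Its level was 8.07 and 8.65 log2 CPM per kb of exon (mean 335 CPM per kb, SD 0.41 on the log2 scale, n = 2), above 98.3% of 12746 genes. Rela, which encodes the main activating subunit p65, followed at 5.03 and 5.15, and Nfkbib, which encodes IkB-beta, at 4.79 and 5.16. The ranges of Rela and Nfkbib overlapped, and the other neighbours in the order did not overlap. Nfkb1, the source of the p50 subunit, stood at 3.60 and 3.87. The kb are those of all annotated exons, for Nfkb1 12061 bases against 4149 in its longest transcript. Its place below Rela and Nfkbib, and the subunit sum, thus depend on the length used. In log2 CPM without length, Nfkb1 stood at 7.19 and 7.46 in wild type and Rela at 6.65 and 6.77. Rel, which encodes c-Rel, had a mean of 2.70, Nfkbie (IkB-epsilon) 2.50, Nfkb2 1.96 and Nfkbiz (IkB-zeta) 1.66 log2 CPM per kb. At the bottom were Relb with a mean of 0.22 and Tnfaip3 with -0.16, the latter above 14% of genes. The 3 classical IkB genes summed to 303 and 442 CPM per kb in the wild type libraries, and the 5 subunit genes to 56.1 and 61.8. Nfkbia alone made up 88.9% and 90.7% of the IkB sum.

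**Figure D2:**
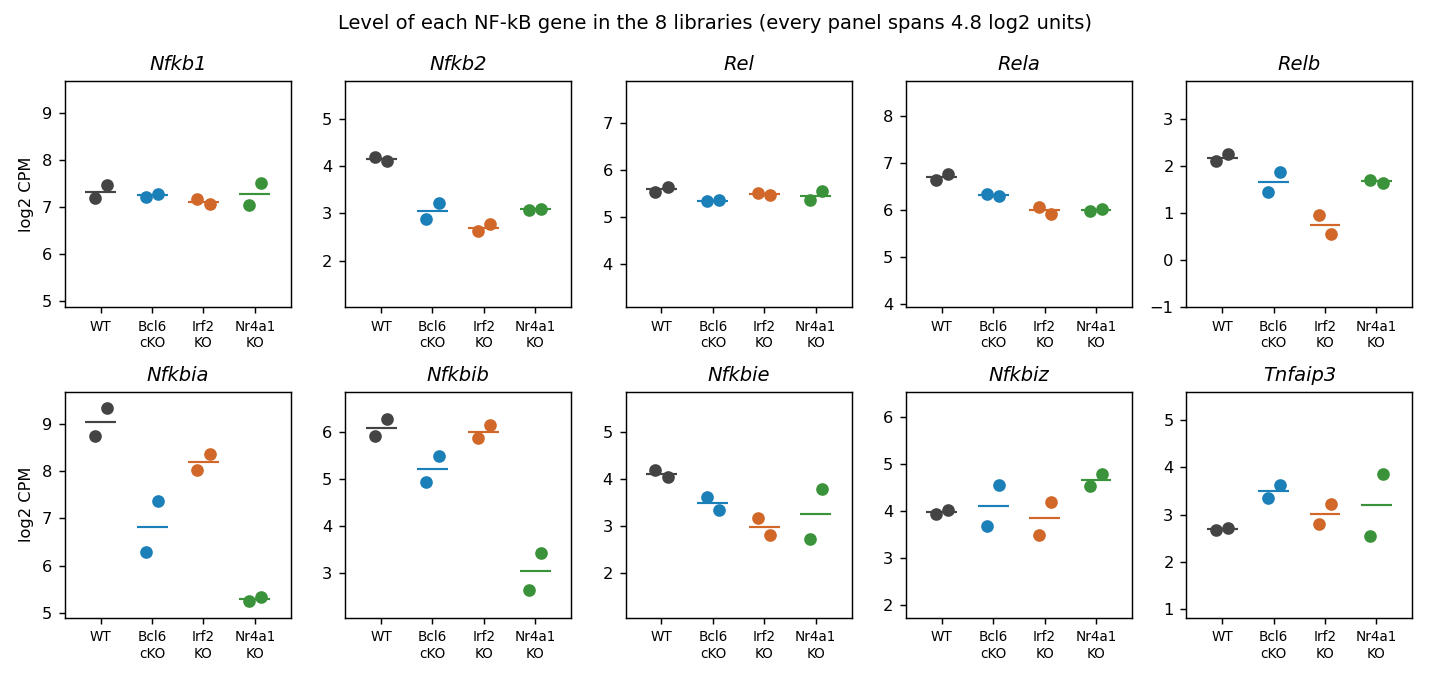
Log2 CPM of each NF-kB gene in the 8 libraries, with 1 point per library and a bar at the mean of each genotype. Nfkbia and Nfkbib drop furthest, in Nr4a1 KO, while Nfkb1 and Rel stay within a span of 0.48 and 0.31 log2 units over all libraries.

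Against wild type, no member rose and 2 to 4 of 10 fell in each knockout (limma, Benjamini-Hochberg adjusted p under 0.05). In the libraries labelled Bcl6 cKO 2 of 10 members fell, Nfkb2 and Nfkbia. Over all genes 5.01% were called there, 3.65% lower and 1.36% higher. In Irf2 KO 4 of 10 fell, namely Nfkb2, Rela, Relb and Nfkbie, with 21.6% of all genes called, 12.3% lower and 9.26% higher. In Nr4a1 KO 4 of 10 fell, namely Nfkb2, Rela, Nfkbia and Nfkbib, with 15.1% called, 11.2% lower and 3.94% higher. Nfkb2 was on each list, but the 3 comparisons share the wild type libraries. The median log2 fold change of the 10 members was -0.45 for Bcl6 cKO, -0.46 for Irf2 KO and -0.60 for Nr4a1 KO. Over all genes tested it was -0.005, -0.043 and 0.009 in that order.

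The split of calls over all genes depended on scaling. Of the called genes 27.1%, 42.9% and 26.1% were higher, in the same order, as deposited. With each library centred on its median these shares were 40.7%, 59.3% and 50.7%, and with quantile normalization 39.3%, 53.7% and 47.1%. Centring moved the median fold change of all genes from -0.043 to 0.059 in Irf2 KO and from 0.009 to 0.138 in Nr4a1 KO.

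**Figure D3:**
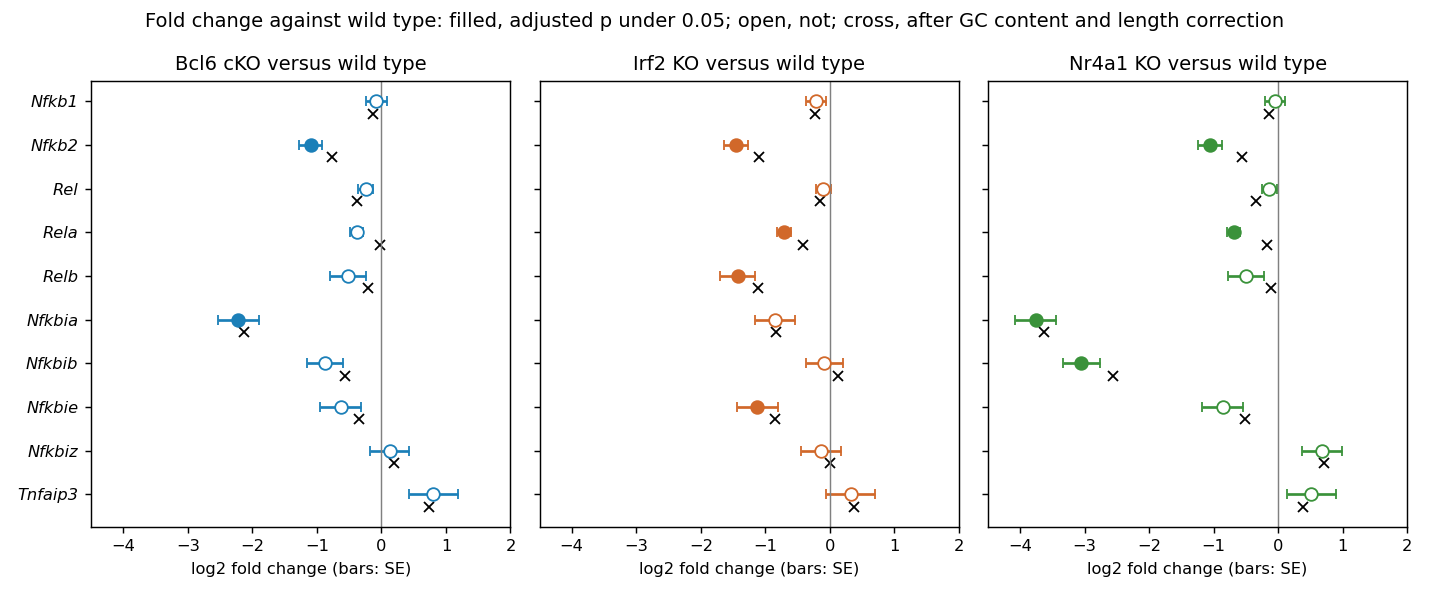
Log2 fold change ± SE of each NF-kB gene against wild type in the 3 knockouts, filled where the adjusted p is under 0.05, with a cross for the value after correction for GC content and length. No filled point lies above 0, and the points furthest left are Nfkbia (-3.76) and Nfkbib (-3.05) in Nr4a1 KO.

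Among the subunits, Nfkb2 (ENSMUSG00000025225, chr19:46304320-46312385, plus strand) fell in every knockout. It stood at 4.20 and 4.10 log2 CPM in wild type, 2.88 and 3.23 in Bcl6 cKO, 2.62 and 2.77 in Irf2 KO, and 3.08 and 3.10 in Nr4a1 KO. Both wild type libraries were above all 6 others. The log2 fold changes were -1.10 ± 0.18 (adjusted p = 0.0143), -1.46 ± 0.18 (adjusted p = 0.00236) and -1.06 ± 0.18 (adjusted p = 0.00566). In reads, Nfkb2 went from 1067 and 882 in wild type to between 298 and 488 in the knockouts. The Bcl6 cKO call was lost without either wild type library or without Bcl6 cKO replicate 1 (adjusted p up to 0.133). After correction for GC content and length it was lost there (log2 fold change -0.77) and in Nr4a1 KO (-0.56, adjusted p = 0.0888).

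An lncRNA on the opposite strand, 4833438C02Rik, shares 11.6% of the exon bases of Nfkb2, and Psd shares 6.52%. The sources used here do not say whether counting used strand, so reads of such partners cannot be told apart where they overlap. The level of 4833438C02Rik was 3.21 and 3.44 log2 CPM in wild type and 1.47 and 1.86 in Nr4a1 KO, a fall of 1.67 ± 0.29 on the log2 scale (adjusted p = 0.00544). In Bcl6 cKO and Irf2 KO its log2 fold changes were -0.96 (adjusted p = 0.0991) and -0.88 (adjusted p = 0.0602). Psd stood between 0.38 and 1.38 log2 CPM in all 8 libraries and was not called in any comparison with wild type.

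Rela (ENSMUSG00000024927, chr19:5637483-5648130, plus strand) fell by less but with little spread. Its level was 6.65 and 6.77 log2 CPM in wild type, 6.34 and 6.31 in Bcl6 cKO, 6.07 and 5.92 in Irf2 KO, and 5.99 and 6.04 in Nr4a1 KO. No knockout library reached the wild type range. The log2 fold change was -0.71 ± 0.10 in Irf2 KO (adjusted p = 0.00358), and Nr4a1 KO gave -0.69 ± 0.10 (adjusted p = 0.00251). In Bcl6 cKO it was -0.38 ± 0.10 and missed the threshold (adjusted p = 0.0746). The Irf2 KO call held in all 19 settings tried, with the value down to -0.41 after the GC content and length correction. The Nr4a1 KO call ended under that correction, where the log2 fold change was -0.18 (adjusted p = 0.357).

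Relb (ENSMUSG00000002983, chr7:19606217-19629438, minus strand), the partner of p52 in the noncanonical route, was the scarcest subunit and fell in Irf2 KO. It had 247 and 244 reads in wild type and 93 and 79 in Irf2 KO. On the log2 CPM scale it stood at 2.09 and 2.25 in wild type, 1.45 and 1.86 in Bcl6 cKO, 0.95 and 0.54 in Irf2 KO, and 1.70 and 1.64 in Nr4a1 KO. Irf2 KO held the lowest values, and the Nr4a1 KO values lay within the range of Bcl6 cKO. The log2 fold change in Irf2 KO was -1.43 ± 0.28 (adjusted p = 0.0098), and the call was lost with Irf2 KO replicate 2 or wild type replicate 2 left out (highest adjusted p 0.0605). The values in Bcl6 cKO (-0.52, adjusted p = 0.318) and Nr4a1 KO (-0.50, adjusted p = 0.258) missed the threshold.

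Nfkb1 (ENSMUSG00000028163, chr3:135584655-135691547, minus strand) and Rel (ENSMUSG00000020275, chr11:23736847-23770970, minus strand) passed the threshold in none of the 3 comparisons. Nfkb1 stood at 7.19 and 7.46 log2 CPM in wild type, 7.22 and 7.28 in Bcl6 cKO, 7.17 and 7.06 in Irf2 KO, and 7.04 and 7.52 in Nr4a1 KO. Its 95% interval of the log2 fold change in Nr4a1 KO ran from -0.41 to 0.31. Rel stood at 5.55 and 5.65 in wild type, 5.34 and 5.37 in Bcl6 cKO, 5.51 and 5.48 in Irf2 KO, and 5.37 and 5.55 in Nr4a1 KO. Its largest log2 fold change against wild type was -0.24 ± 0.12 in Bcl6 cKO (95% interval -0.51 to 0.02, adjusted p = 0.261).

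Among the inhibitors, Nfkbia (ENSMUSG00000021025, chr12:55489410-55492647, minus strand) had the widest range of the 10 genes. IkB-alpha, its product, binds RelA and c-Rel dimers and is the fast arm of the feedback. Reads numbered 25117 and 33153 in wild type, 4836 and 8617 in Bcl6 cKO, 12687 and 17972 in Irf2 KO, and 1936 and 1918 in Nr4a1 KO. The corresponding log2 CPM values were 8.76 and 9.34, 6.29 and 7.37, 8.03 and 8.36, and 5.25 and 5.32. The 4 genotypes did not overlap, with wild type highest, then Irf2 KO, Bcl6 cKO and Nr4a1 KO.

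In Nr4a1 KO the log2 fold change of Nfkbia was -3.76 ± 0.32 (adjusted p = 0.00011), a 13.6-fold lower level. It was called in all 19 settings, between -4.05 and -3.47. In Bcl6 cKO the log2 fold change was -2.22 ± 0.32 (adjusted p = 0.00847), or 4.66-fold lower. Without Bcl6 cKO replicate 1, the lower of the pair, it was -1.68 (adjusted p = 0.0579). In Irf2 KO it was -0.85 ± 0.32 and missed the threshold (adjusted p = 0.0875). Leaving out either Bcl6 cKO library, which changes only the estimate of spread, brought the Irf2 KO value under the threshold (adjusted p = 0.0312 and 0.0311).

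Nfkbib (ENSMUSG00000030595, chr7:28758251-28767512, minus strand), whose product IkB-beta also binds RelA and c-Rel dimers, fell in Nr4a1 KO. It stood at 5.91 and 6.27 log2 CPM in wild type, 4.93 and 5.49 in Bcl6 cKO, 5.87 and 6.14 in Irf2 KO, and 2.64 and 3.44 in Nr4a1 KO. The Irf2 KO range overlapped that of wild type, and both Nr4a1 KO libraries were far below all others. Reads there were 317 and 520, against 3481 and 3970 in wild type. The log2 fold change was -3.05 ± 0.28 in Nr4a1 KO (adjusted p = 0.000178, 8.29-fold lower), called in all 19 settings between -3.45 and -2.56. In Irf2 KO it was -0.09 ± 0.28 (adjusted p = 0.853). In Bcl6 cKO it was -0.88 ± 0.28 (adjusted p = 0.12), and it passed the threshold when either Nr4a1 KO library was left out (adjusted p = 0.0384 and 0.0378).

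Partners of Nfkbib lie on the opposite strand. Sirt2 shares 1.94% of the exon bases of Nfkbib and Ccer2, not analysed here, 14.5%. Sirt2, a deacetylase gene, stood at 6.66 and 6.92 log2 CPM in wild type and 6.57 and 6.63 in Nr4a1 KO (log2 fold change -0.20 ± 0.12, adjusted p = 0.316).

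Nfkbie (ENSMUSG00000023947, chr17:45555703-45563169, plus strand) fell in Irf2 KO. It stood at 4.18 and 4.04 log2 CPM in wild type, 3.61 and 3.34 in Bcl6 cKO, 3.16 and 2.81 in Irf2 KO, and 2.72 and 3.78 in Nr4a1 KO. All 6 knockout libraries were below wild type, and the Nr4a1 KO pair spanned the whole range of the other knockouts. The log2 fold change in Irf2 KO was -1.12 ± 0.32 (adjusted p = 0.0373), and the call held in 10 of 19 settings. It was lost when any library of wild type, Bcl6 cKO or Irf2 KO was left out. With 1 library left out the value ran from -1.30 to -0.95. The call was also lost without a trend of the prior variance and with quantile normalization. Under the GC content and length correction it was lost too (-0.85, adjusted p = 0.128). In Bcl6 cKO the log2 fold change was -0.63 (adjusted p = 0.292). The Nr4a1 KO value was -0.86 (adjusted p = 0.106), and it was -1.39 (adjusted p = 0.00632) without replicate 2 of that genotype and -0.33 without replicate 1.

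Nfkbiz (ENSMUSG00000035356, chr16:55811375-55838899, minus strand), a nuclear IkB that acts as a coactivator of secondary response genes, was called in no comparison. Its values were 3.93 and 4.03 log2 CPM in wild type, 3.68 and 4.55 in Bcl6 cKO, 3.49 and 4.20 in Irf2 KO, and 4.53 and 4.79 in Nr4a1 KO. The Nr4a1 KO pair lay above wild type, with a log2 fold change of 0.67 ± 0.31 (adjusted p = 0.181). Tnfaip3 (ENSMUSG00000019850, chr10:19000910-19015657, minus strand) stood at 2.66 and 2.72 in wild type, 3.36 and 3.64 in Bcl6 cKO, 2.80 and 3.23 in Irf2 KO, and 2.55 and 3.87 in Nr4a1 KO. Its log2 fold changes were 0.80 ± 0.38 (adjusted p = 0.26), 0.33 (adjusted p = 0.568) and 0.52 (adjusted p = 0.401), all above 0 and none called. In Nr4a1 KO 1 library decided the value of Tnfaip3, which was 1.18 without replicate 1 (adjusted p = 0.0182) and -0.14 without replicate 2.

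The balance of inhibitor to subunit transcripts per length is given as a description of these libraries, with no test. The ratio of Nfkbia to Rela per kb was 8.26 and 11.3 in wild type, 7.45 and 10.4 in Irf2 KO, 1.85 and 3.97 in Bcl6 cKO, and 1.14 and 1.16 in Nr4a1 KO. Wild type and Irf2 KO overlapped, and the other genotypes lay below both. The summed level of the 3 classical IkB genes was 193 and 239 CPM per kb in Irf2 KO, 66.7 and 127 in Bcl6 cKO and 28.6 and 34.4 in Nr4a1 KO. The sum over the 5 subunits stayed closer together, at 41.7 and 38.6 in Irf2 KO, 46.3 and 47.2 in Bcl6 cKO and 39.8 and 45.5 in Nr4a1 KO. In Nr4a1 KO, IkB transcripts were thus below subunit transcripts per kb of annotated exon. The subunit sums would be higher with the longest Nfkb1 transcript, which holds 4149 bases against 12061 of annotated exon. The order of the 2 sums in the other genotypes was not tested with that length, and in Bcl6 cKO replicate 1 they lay at 66.7 and 46.3. Per kb of annotated exon, Nfkbia remained the highest member in Nr4a1 KO, at 4.56 and 4.64 log2 CPM per kb against 4.37 and 4.42 for Rela. Nfkbib took sixth place there with a mean of 1.92. The place of Nfkbia depends on the length used. In log2 CPM without length, Nfkb1 (7.04 and 7.52) and Rela (5.99 and 6.04) stood above Nfkbia (5.25 and 5.32) in Nr4a1 KO.

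The knockouts were also compared with each other. Irf2 KO against Nr4a1 KO called 3 of 10 members, with 22.3% of all genes called. Nfkbia was higher in Irf2 KO by 2.91 ± 0.32 on the log2 scale (adjusted p = 0.000451) and Nfkbib by 2.97 ± 0.28 (adjusted p = 0.000249). Relb was lower in Irf2 KO, with a log2 difference of -0.92 ± 0.28 (adjusted p = 0.0428), and this call held in 5 of 17 settings and was lost when any 1 of the 8 libraries was left out (adjusted p up to 0.208). Bcl6 cKO against Irf2 KO called Nfkbia (-1.37 ± 0.32, adjusted p = 0.0327), 1 of 10 members, with 9.55% of all genes called. Bcl6 cKO against Nr4a1 KO called 2 of 10, Nfkbia (1.54 ± 0.32, adjusted p = 0.0237) and Nfkbib (2.17 ± 0.28, adjusted p = 0.00258), with 5.75% of all genes called. The Nfkbia difference of Bcl6 cKO from Irf2 KO was lost without Bcl6 cKO replicate 1 (-0.83, adjusted p = 0.13) or either Irf2 KO library, and that from Nr4a1 KO without Bcl6 cKO replicate 2 (1.004, adjusted p = 0.115) or Nr4a1 KO replicate 1. Rela did not differ past the threshold between Irf2 KO and Nr4a1 KO (95% interval of the log2 difference -0.25 to 0.22).

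Fold changes tracked base composition in every comparison with wild type. Over 12740 genes Spearman's rho between log2 fold change and transcript GC content was -0.32 for Bcl6 cKO, -0.19 for Irf2 KO and -0.34 for Nr4a1 KO, across genes that are not independent. With transcript length it was -0.11, -0.25 and -0.08, so in Irf2 KO the relation with length was the stronger. Genes were split by GC content into 10 bins of 1274. In the bin of highest GC content the median log2 fold change was -0.23, -0.29 and -0.35, and in the lowest 0.15, 0.08 and 0.21. Transcripts of Nfkb2 and Rela held 59.4% GC, Nfkbib 58.8%, Relb 56.8%, Nfkbie 55.4% and Nfkbia 52.9%, and the members never called were lower at 50.1% (Nfkbiz), 47.1% (Tnfaip3), 44.9% (Nfkb1) and 42.5% (Rel). After correction for GC content and length, Nfkbia stood at -3.63 and Nfkbib at -2.56 in Nr4a1 KO.

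**Figure D4:**
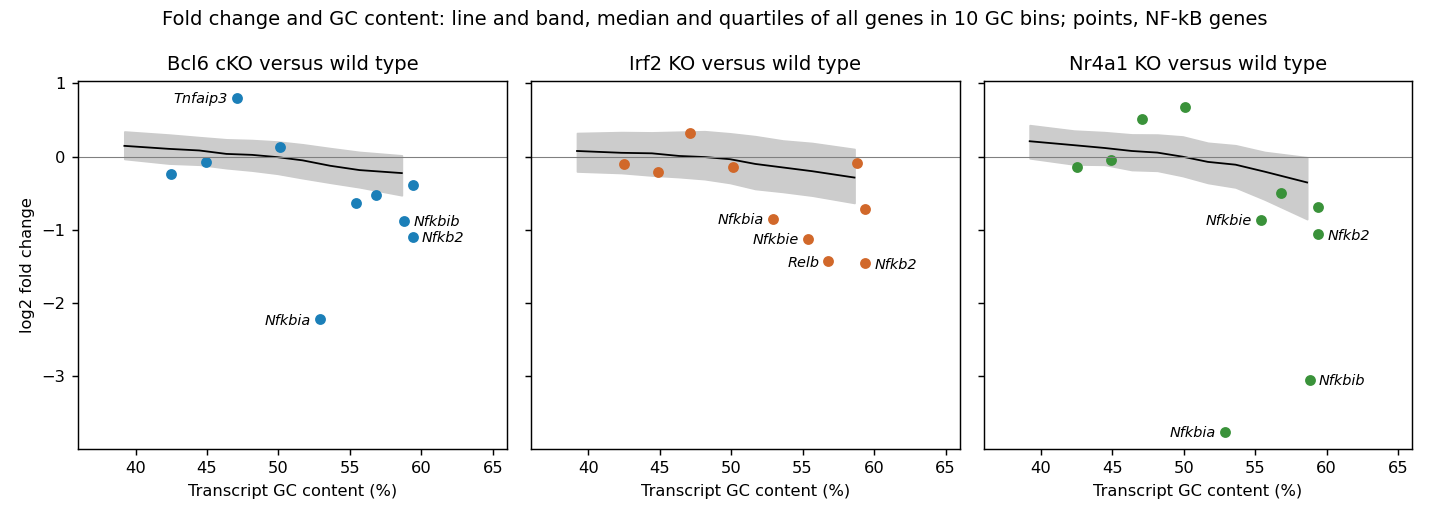
Log2 fold change against wild type by transcript GC content in percent. The line and band show the median and quartiles of all tested genes in 10 bins of GC content, and points are NF-kB genes, of which Nfkbia (-3.76) and Nfkbib (-3.05) in Nr4a1 KO lie far below the band.

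Upstream of the IkB kinase, 23 receptor genes were listed, of which 20 were among the genes analysed and 19 passed the filter and were tested. Of these 2 fell and 1 rose in Bcl6 cKO, 6 fell and 2 rose in Irf2 KO, and 2 fell and 2 rose in Nr4a1 KO, with list medians of -0.13, -0.43 and 0.02. Beside these counts, 5.01%, 21.6% and 15.1% of all genes were called in the same order. Both TNF receptors fell in Nr4a1 KO, on the log2 scale Tnfrsf1a by 1.34 ± 0.14 (adjusted p = 0.000372) and Tnfrsf1b by 0.89 ± 0.15 (adjusted p = 0.00489). Tnfrsf1b also fell in Bcl6 cKO by 0.88 (adjusted p = 0.0147) and in Irf2 KO by 1.15 (adjusted p = 0.00252). Tlr4, the lipopolysaccharide receptor, rose by 1.53 ± 0.21 in Irf2 KO (adjusted p = 0.00307) and by 0.88 ± 0.21 in Nr4a1 KO (adjusted p = 0.0257). Its co-receptor gene Cd14 rose in Bcl6 cKO (1.13, adjusted p = 0.0282) and Nr4a1 KO (1.08, adjusted p = 0.0139) and fell in Irf2 KO (-1.02, adjusted p = 0.0158). In Irf2 KO, Tlr2 (-1.25, adjusted p = 0.00553) and the IL-1 receptor accessory gene Il1rap (-1.40, adjusted p = 0.00631) fell. The calls of Tnfrsf1b in Bcl6 cKO, Cd14 in all 3 and Tlr4 in Nr4a1 KO held in 13 to 17 of 19 settings and were lost when certain libraries of wild type or of that knockout were left out (adjusted p up to 0.199). Tlr4 in Nr4a1 KO was also lost under the GC content and length correction (0.68, adjusted p = 0.0865) and was not called in the authors' deposited table (adjusted p = 0.0664). The others held in all 19. Outside the naming rule, and picked after their values were seen, Nod2 was the other fall in Bcl6 cKO (-1.37, adjusted p = 0.0209) and Tlr1 the other rise in Irf2 KO (0.97, adjusted p = 0.0142). Leaving out either library of the knockout ended both calls.

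Of 22 adaptor and ubiquitin ligase genes tested (23 listed) 7 fell in Irf2 KO, 6 in Nr4a1 KO and 2 in Bcl6 cKO, and 0 rose. In the order Bcl6 cKO, Irf2 KO, Nr4a1 KO, the list medians were -0.20, -0.38 and -0.27. The shares of all genes called lower were 3.65%, 12.3% and 11.2% in that order. All 3 genes of LUBAC, the ligase that builds linear ubiquitin chains needed to activate the IkB kinase, fell in Nr4a1 KO. Rbck1 (HOIL-1) fell on the log2 scale by 1.65 ± 0.16 (adjusted p = 0.000243), Rnf31 (HOIP, the catalytic subunit) by 0.93 ± 0.15 (adjusted p = 0.00361) and Sharpin by 1.55 ± 0.29 (adjusted p = 0.00788). In Bcl6 cKO Rbck1 (-0.95, adjusted p = 0.0146) and Sharpin (-1.68, adjusted p = 0.0155) fell, and in Irf2 KO Sharpin (-1.497, adjusted p = 0.00969) fell. The adaptor genes Traf5 and Bcl10 fell in Irf2 KO (-1.38 and -0.48, adjusted p = 0.00598 and 0.0171), as they did in Nr4a1 KO (-0.95 and -0.57, adjusted p = 0.0277 and 0.00928). Irak4, a kinase at the Toll-like receptor adaptor complex, fell in Irf2 KO (-0.46, adjusted p = 0.0216). The calls of Rbck1 and Rnf31 in Nr4a1 KO and of Traf5 in Irf2 KO held in all 19 settings, and the others in 12 to 18, being lost when certain libraries of wild type or of that knockout were left out (adjusted p up to 0.144). The GC content and length correction also ended the calls of Rbck1 in Bcl6 cKO (-0.59), Bcl10 in Irf2 KO (-0.38) and Irak4 in Irf2 KO (-0.35).

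Of 15 kinase genes 0 were called in Bcl6 cKO, 3 fell in Irf2 KO and 2 rose in Nr4a1 KO, with list medians of -0.07, -0.18 and 0.09. Of all genes 5.01%, 21.6% and 15.1% were called there in either direction. By direction, 12.3% of all genes were called lower in Irf2 KO and 3.94% higher in Nr4a1 KO. Whether the kinase counts differ from these shares was not tested. In Irf2 KO the falls were Ikbkb (-0.77 ± 0.10, adjusted p = 0.00238), which encodes IKK-beta, Tab1 (-1.01 ± 0.15, adjusted p = 0.00423), a partner of TAK1, and Map3k14 (-1.13 ± 0.20, adjusted p = 0.00719), which encodes NIK. In Nr4a1 KO the rises were Chuk (0.68 ± 0.13, adjusted p = 0.0103), which encodes IKK-alpha, and Ripk1 (0.64 ± 0.17, adjusted p = 0.0386). The 3 falls held in all 19 settings, Chuk in 16 and Ripk1 in 9, with either Nr4a1 KO library among those whose removal ended the Ripk1 call, which the GC content and length correction also ended (0.48, adjusted p = 0.128).

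Of 17 further brakes listed, 16 were tested. Of these 0 were called in Bcl6 cKO, 5 fell and 2 rose in Irf2 KO, and 1 fell and 1 rose in Nr4a1 KO. The list medians were -0.03, -0.26 and -0.03. The background was 5.01%, 21.6% and 15.1% of all genes called. In Irf2 KO the falls were Tnfaip8l2 (-0.80, adjusted p = 0.00145), Tnip1 (-0.77, adjusted p = 0.00735), which encodes an A20 partner, Nkiras2 (-0.58, adjusted p = 0.0176), Zc3h12a (-0.88, adjusted p = 0.0229), which encodes the RNase Regnase-1, and Nfkbid (-0.81, adjusted p = 0.0295), an atypical IkB gene. Nfkbid also fell in Nr4a1 KO (-0.89, adjusted p = 0.0249). Commd1, whose product promotes RelA turnover, rose in Irf2 KO (0.37, adjusted p = 0.0329). Tnfaip8l2 held in all 19 settings. The GC content and length correction ended the calls of Tnip1 (-0.47, adjusted p = 0.0567), Nkiras2 (-0.38), Zc3h12a (-0.59) and Nfkbid (-0.62) in Irf2 KO and of Nfkbid in Nr4a1 KO (-0.48, adjusted p = 0.185). Tnip1 was called in the other 18 settings. Nkiras2, Zc3h12a, Nfkbid and Commd1 held in 11 to 15 and were also lost when certain libraries of wild type or of that knockout were left out (adjusted p up to 0.161), and Commd1 also without either Bcl6 cKO library. Named after their values were seen, Tax1bp1 was the other rise in Irf2 KO (0.56, adjusted p = 0.0496) and Otulin the rise in Nr4a1 KO (0.51, adjusted p = 0.0385), with calls in 10 and 8 of 19 settings. Leaving out any 1 of the 8 libraries ended the Otulin call, and that of Tax1bp1 ended without any library of wild type or Bcl6 cKO or without Irf2 KO replicate 2.

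Downstream, 35 genes known as NF-kB targets were listed, of which 30 were among the genes analysed and 23 passed the filter and were tested. Of these 2 fell and 1 rose in Bcl6 cKO, 8 fell in Irf2 KO, and 3 fell and 1 rose in Nr4a1 KO, with list medians of -0.07, -0.66 and 0.16. Over all genes 5.01%, 21.6% and 15.1% were called, and 3.65%, 12.3% and 11.2% were called lower. Ebi3, a cytokine subunit gene, fell in all 3, with log2 fold changes of -1.91 in Nr4a1 KO (adjusted p = 0.00146), -1.79 in Irf2 KO (adjusted p = 0.0035) and -1.42 in Bcl6 cKO (adjusted p = 0.0189). Sod2, the mitochondrial superoxide dismutase gene, fell in Bcl6 cKO (-0.95, adjusted p = 0.0122) and Nr4a1 KO (-1.34, adjusted p = 0.000569). Plaur, the urokinase receptor gene, fell in Irf2 KO (-0.96, adjusted p = 0.00104) and Nr4a1 KO (-0.46, adjusted p = 0.006). The IL-1 receptor antagonist gene Il1rn rose in Bcl6 cKO (1.08, adjusted p = 0.0249) and fell in Irf2 KO (-1.78, adjusted p = 0.00193), where the survival gene Bcl2l1 (-0.77, adjusted p = 0.0141) and the lectin receptor gene Clec4e (-1.501, adjusted p = 0.0245) also fell. The Bcl6 cKO calls, Bcl2l1 and Clec4e held in 14 to 15 of 19 settings and were lost when certain libraries of wild type or of that knockout were left out (adjusted p up to 0.176). Bcl2l1 in Irf2 KO (-0.52, adjusted p = 0.0605) and Plaur in Nr4a1 KO (-0.25, adjusted p = 0.071) ended under the GC content and length correction, and the other calls given so far held in all 19. The rise in Nr4a1 KO, named after its value was seen, was Il1b, which encodes the cytokine IL-1 beta, at 1.87 ± 0.35 on the log2 scale (adjusted p = 0.00776). It was lost without wild type replicate 2 and called in 17 of 18 settings. In Irf2 KO Il1b fell (-1.25, adjusted p = 0.0349), called in 10 of 18 settings and lost without any library of wild type or Bcl6 cKO or without Irf2 KO replicate 1.

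Immediate early genes, which rise when cells are handled or stimulated, were followed because several NF-kB inhibitors respond as fast. Of 18 listed, 16 were tested. Of these 0 were called in Bcl6 cKO, 3 fell in Irf2 KO and 1 fell in Nr4a1 KO, with list medians of 0.07, -0.20 and 0.10. Over all genes 5.01%, 21.6% and 15.1% were called, and 3.65%, 12.3% and 11.2% were called lower. Whether the counts differ from these shares was not tested. Btg2 (-1.36, adjusted p = 0.00149), Zfp36 (-0.77, adjusted p = 0.0217) and Junb (-1.11, adjusted p = 0.0475) fell in Irf2 KO. Myc fell in Nr4a1 KO on the log2 scale by 2.21 ± 0.25 (adjusted p = 0.000567). Myc and Btg2 held in all 19 settings, Zfp36 in 14 and Junb in 9. The GC content and length correction ended the calls of Zfp36 (-0.53) and Junb (-0.91), and Junb stood at -0.69 without Irf2 KO replicate 1.

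**Figure D5:**
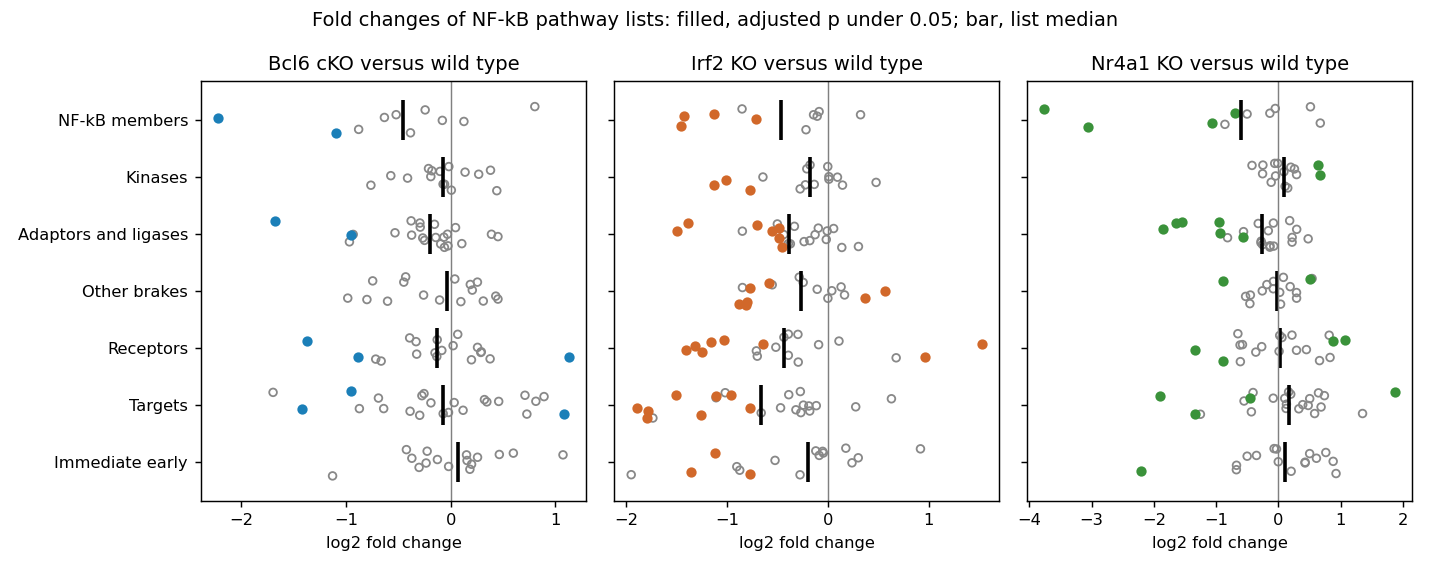
Log2 fold changes against wild type of the 10 NF-kB genes and 6 lists of pathway genes, filled where the adjusted p is under 0.05, with a bar at each list median. Most filled points lie below 0. Of 23 targets 8 were lower in Irf2 KO, where 12.3% of all genes were called lower. Of 22 adaptors and ligases 6 were lower in Nr4a1 KO, against 11.2% of all genes. In the values as deposited, most called genes were lower too, with 27.1% (Bcl6 cKO), 42.9% (Irf2 KO) and 26.1% (Nr4a1 KO) higher.

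Genes most like each member were found by the root mean square difference of log2 CPM over the 8 libraries, each gene centred on its own mean, among 9890 genes. Such lists share the libraries and their depth and carry no test. Nearest to Nfkbia were Ccdc107 (0.22 log2 units), Nop53 (0.30) and Med28 (0.31), and nearest to Nfkbib were 2310009B15Rik (0.16), Naxe (0.18) and H2bc8 (0.18). Nearest to Nfkb2 were Snrk (0.14), P2rx4 (0.14) and Mapk3 (0.15), to Relb Pira2 (0.15), Cd300a (0.15) and Ppfia4 (0.16), and to Nfkbie Sgcb (0.16), Atg16l2 (0.19) and Zgpat (0.19). Nfkbiz lay nearest to the early response genes Ier5 (0.18) and Fos (0.18), then Creb3l2 (0.18). Tnfaip3 lay nearest to Gm46224 (0.17), B2m (0.19) and Arid5b (0.21).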

How the data were processed

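Per the labels' protocols, RNA was converted to amplified full-length cDNA and sequenced as paired reads. The submitters' processing notes name STAR, featureCounts, Salmon, limma and mm10. The deposited columns hold log2 CPM values made by the authors, that is, 0.5 was added to each read number and 1 to the scaled library total before log2 was taken. Whole reads were recovered from them to within 1e-07. The authors' deposited p-values, adjusted p-values and log2 fold changes served only as an alternative. Left out were 45 repeated rows.

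A filter kept 12752 genes whose mean log2 CPM reached that of 1 CPM. Their deposited log2 CPM values entered limma 3.58.1 (R 4.3.3). The model had 4 group means, 8 libraries and a trend of the prior variance, with 4 residual and 4.66 prior degrees of freedom. P-values were adjusted by Benjamini-Hochberg over all genes. The spread is assumed alike in all groups. Levels per kb used the length of all annotated exons of a gene together, from GENCODE M21 (GRCm38). For Nfkb1 this length is 12061 bases, against 4149 in its longest transcript. Promoters came from RefSeq, and figures from matplotlib 3.10.9 in Python 3.11.15. The procedure was tested on simulated data.

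Members and lists were chosen with earlier results of these data known. Named genes were all members, the 3 targeted genes, up to 6 called genes of at least 4 CPM per pathway list by smallest adjusted p, and the 3 genes most like each member that spans at least 1 log2 unit. Partners that overlap a member were named for that overlap, and markers from fixed lists. Nod2, Tlr1, Tax1bp1, Otulin and Il1b were named after their values were seen.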

Additional observations from a re-analysis of the deposited data

How the results depend on the processing

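Besides the fit described, 19 alternatives were run, of which the correction for GC content and length was chosen after seeing the data. Of all values recomputed, 1489 kept their direction and side of the threshold, 202 lost a call, 11 gained one and 15 changed sign.

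The calls of Nfkbia and Nfkbib in Nr4a1 KO, and of Nfkb2 and Rela in Irf2 KO, held in all 19. Nfkbib was called in Bcl6 cKO in 5 of 19 and Nfkbia in Irf2 KO in 4 of 19. Sign changes fell among uncalled values. Under quantile normalization Rel stood at 0.009 in Irf2 KO and 0.015 in Nr4a1 KO, and Nfkb1 at 0.053 in Nr4a1 KO. With median centring Nfkbib stood at 0.017 in Irf2 KO and Nfkb1 at 0.079 in Nr4a1 KO. Under the GC content and length correction Nfkbib stood at 0.133 and Nfkbiz at 0.005 in Irf2 KO.

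With 1 library left out, Nfkb1 ran from -0.216 to 0.059 in Bcl6 cKO and from -0.289 to 0.19 in Nr4a1 KO, Nfkbib from -0.268 to 0.098 in Irf2 KO, Nfkbiz from -0.308 to 0.561 in Bcl6 cKO and from -0.499 to 0.219 in Irf2 KO, and Tnfaip3 from -0.144 to 1.175 in Nr4a1 KO. Members called then ran from 0 to 3 in Bcl6 cKO, 2 to 4 in Irf2 KO and 4 to 5 in Nr4a1 KO against wild type, 0 to 2 between Bcl6 cKO and Irf2 KO, 1 to 2 between Bcl6 cKO and Nr4a1 KO, and stood at 2 between Irf2 KO and Nr4a1 KO.

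Members called moved from 2 to 1 in Bcl6 cKO and from 4 to 2 in Nr4a1 KO with the GC content and length correction. Nfkbib was gained in Bcl6 cKO with only the 2 groups compared, with the replicate block and in the authors' deposited results. In Irf2 KO Nfkbia was gained with only the 2 groups compared and with the replicate block. Nfkbie was lost there without a trend, with quantile normalization and with the GC content and length correction. The filter at 4 CPM left out Relb. Between Bcl6 cKO and Irf2 KO the count moved from 1 to 0 without a trend, and to 2 with library weights, with only the 2 groups compared, and with the replicate number as a block. Between Bcl6 cKO and Nr4a1 KO it moved from 2 to 1 without a trend, with only the 2 groups and with voom on recovered reads. Between Irf2 KO and Nr4a1 KO Relb was lost with library weights, only the 2 groups, the replicate block and voom. The causes of these moves were not tested. Replicate differences of same-numbered libraries correlated from -0.003 to 0.183 over 6 pairs of genotypes. Such values cannot exclude that same-numbered libraries share a batch, and the main fit took the libraries as unpaired.

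Over all genes, calls fell from 639 to 259 in Bcl6 cKO without a trend and to 33 without Bcl6 cKO replicate 1, from 2755 to 1733 in Irf2 KO with the GC content and length correction and to 1076 without wild type replicate 2, and from 1925 to 1054 in Nr4a1 KO with only the 2 groups. Depth limits Relb most, at 79 reads in its lowest library.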
